A study of Bos taurus with 31 samples.

Results

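Fibrillar collagen and mesenchymal stroma genes were followed in the liver of 31 bovine fetuses at day 83 of gestation. The genes were 6, chosen by identifier from the 27607 in the count table: COL1A1 (ENSBTAG00000013103), COL1A2 (ENSBTAG00000013472), COL3A1 (ENSBTAG00000021466), DCN (ENSBTAG00000003505), SPARC (ENSBTAG00000014835) and VIM (ENSBTAG00000018463). All 6 were present and all 6 had enough counts to be tested, as did 14228 genes in all. The table gives identifiers only, and the supplied reference holds no Ensembl identifier, so the symbols are those given with the identifiers when the genes were chosen and were not checked against an annotation.

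All fetuses were female, from Angus-cross heifers bred by artificial insemination to a single sire, and each library came from the liver of 1 fetus. The dams of VTM_MG fetuses (n = 7) received a vitamin and mineral premix, and their ration aimed at 0.79 kg of weight gain daily (moderate gain, MG). The dams of VTM_LG fetuses (n = 8) received the premix on a ration aimed at 0.28 kg daily (low gain, LG). The dams of NoVTM_MG fetuses (n = 8) had no premix and moderate gain, and those of NoVTM_LG fetuses (n = 8) had no premix and low gain. The premix was carried in 0.45 kg of ground corn per heifer per day and was begun 71 to 148 days before insemination. The rate of gain was set from breeding onwards, and the MG ration added energy and protein to the feed shared by all groups.

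Type I collagen is built from alpha chains encoded by COL1A1 and COL1A2, and type III collagen from the chain encoded by COL3A1. These collagens assemble outside the cell into fibrils that bear tension, and type III collagen is common in fetal and distensible tissue. DCN encodes decorin, a small proteoglycan that coats fibrils and binds transforming growth factor beta, and SPARC encodes a secreted glycoprotein that binds collagen during its assembly. VIM encodes vimentin, the intermediate filament of mesenchymal cells, which endothelial and blood cells also carry. In liver the collagens are made mainly by stellate cells and portal fibroblasts rather than by hepatocytes.

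Library totals ranged from 13062894 to 18458776 counts. VTM_LG replicates 4 and 7 stood apart from the other libraries on the first principal component of the genes other than these, at 63.0 and 37.9, while the other libraries lay between -20.1 and 6.68. Neither was among the 5 highest libraries for any of the 6 genes, and replicate 4 was among the 5 lowest for 4 of them. The contrasts of COL1A1 and COL1A2 that draw on VTM_LG are given below also without these 2 libraries, as are some spreads, means and correlations. Other values include these 2 libraries unless stated. Markers of other cell types were not analysed here, because no symbol could be tied to their identifiers.

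All 6 genes were well measured in every fetus. Raw counts per library ran from 278 to 1583 for COL1A1, from 366 to 2246 for COL1A2 and from 2527 to 6888 for COL3A1. They ran from 666 to 1736 for DCN, from 2212 to 4590 for SPARC and from 1100 to 2213 for VIM. Below, levels are in CPM, the count scaled to library size after TMM normalization, and are compared between fetuses for 1 gene at a time, since transcript lengths were not at hand to compare genes with each other.

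The type I collagen genes varied most between fetuses of 1 group. COL1A1 ran from 29.2 to 48.4 CPM around a median of 34.9 in VTM_MG fetuses and from 26.2 to 110 CPM around a median of 43.1 in VTM_LG fetuses. It ran from 18.9 to 61.5 CPM around 28.7 in NoVTM_MG fetuses and from 23.0 to 49.8 CPM around 35.0 in NoVTM_LG fetuses. The 4 ranges overlapped, and the upper end of VTM_LG rested on replicate 8 at 110 CPM and replicate 1 at 77.4 CPM. Without replicate 8 the VTM_LG mean was 42.4 ± 17.9 CPM (SD, n = 7), and with it 50.9 ± 29.1 CPM (SD, n = 8).

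COL1A2, for the partner chain, ran from 32.1 to 55.3 CPM around a median of 47.2 in VTM_MG fetuses and from 25.8 to 160 CPM around 57.2 in VTM_LG fetuses. It ran from 25.1 to 96.8 CPM around 39.9 in NoVTM_MG fetuses and from 33.9 to 57.5 CPM around 42.8 in NoVTM_LG fetuses. VTM_LG held the widest span of the 4 groups, 6.17-fold from its lowest to its highest fetus, against 1.72-fold in VTM_MG, 3.86-fold in NoVTM_MG and 1.69-fold in NoVTM_LG. Again replicates 1 and 8 of VTM_LG were highest, at 160 and 139 CPM, and NoVTM_MG replicate 3 came next at 96.8 CPM.

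COL3A1 had a narrower span. It ran from 225 to 293 CPM around a median of 268 in VTM_MG fetuses and from 194 to 479 CPM around 269 in VTM_LG fetuses. It ran from 193 to 369 CPM around 237 in NoVTM_MG fetuses and from 214 to 277 CPM around 254 in NoVTM_LG fetuses. The groups overlapped throughout, and the medians of VTM_MG and VTM_LG nearly coincided although the upper ends did not. Without VTM_LG replicates 4 and 7 the VTM_LG median was 318 CPM (n = 6).

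The matrix-associated proteins followed. DCN ran from 48.5 to 80.8 CPM around a median of 74.9 in VTM_MG fetuses, from 44.1 to 121 CPM around 69.1 in VTM_LG, from 47.3 to 105 CPM around 67.2 in NoVTM_MG and from 60.3 to 80.2 CPM around 69.9 in NoVTM_LG. SPARC ran from 182 to 247 CPM around 209 in VTM_MG fetuses, from 170 to 319 CPM around 223 in VTM_LG, from 160 to 264 CPM around 197 in NoVTM_MG and from 190 to 228 CPM around 205 in NoVTM_LG. For both genes the highest fetus was VTM_LG replicate 8, and NoVTM_LG was the tightest group. VIM ran from 87.6 to 122 CPM around a median of 110 in VTM_MG fetuses, from 86.0 to 139 CPM around 114 in VTM_LG, from 75.5 to 147 CPM around 108 in NoVTM_MG and from 84.9 to 125 CPM around 96.3 in NoVTM_LG. Its highest fetus was NoVTM_MG replicate 3, and no group lay apart from another.

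**Figure D1:**
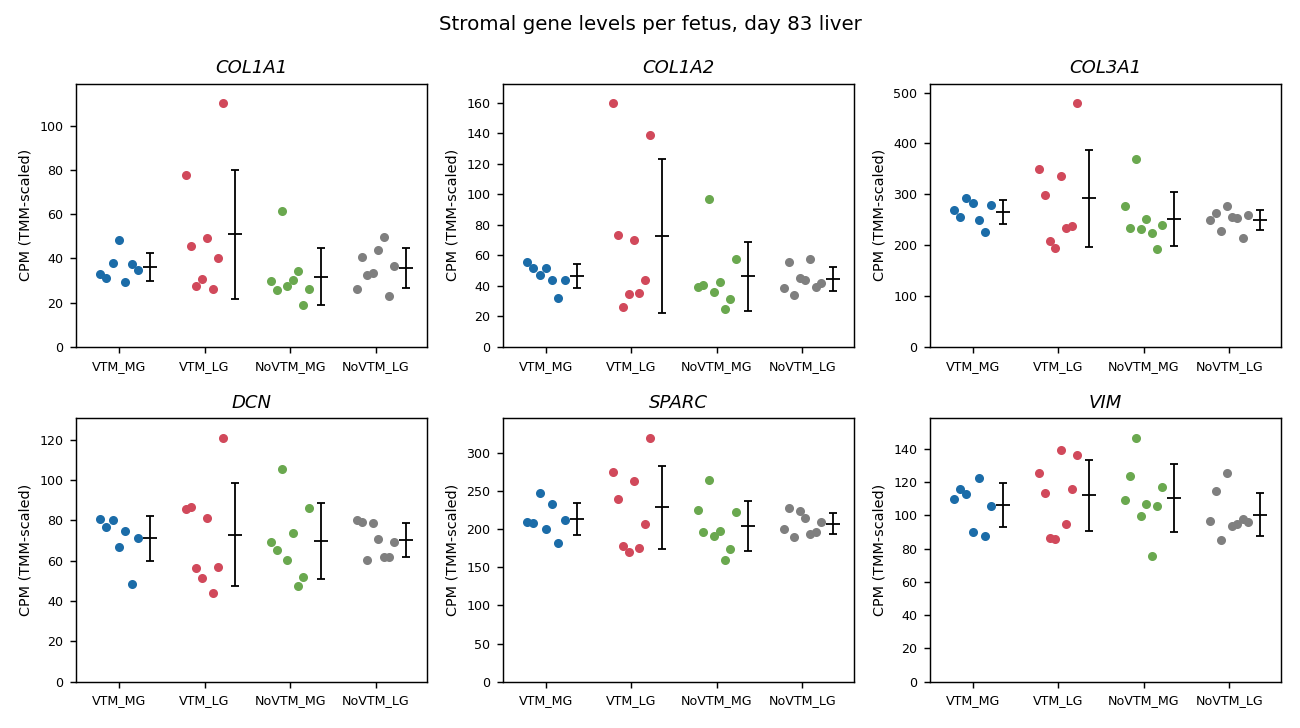
Level of each gene in CPM (y axis, linear from 0) in every fetus (points), by maternal group (x axis), with the mean and SD of the group as a bar to the right of its points. VTM_LG holds the widest span for COL1A1, from 26.2 to 110 CPM, and the 4 groups overlap for every gene.

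The same few fetuses carried the high values. VTM_LG replicate 8 ranked 1 of 31 for COL1A1, COL3A1, DCN and SPARC, 2 for COL1A2 and 3 for VIM. VTM_LG replicate 1 and NoVTM_MG replicate 3 were also among the 5 highest fetuses for all 6 genes, and VTM_LG replicate 5 for 5 of them. At the other end, NoVTM_MG replicates 6 and 7 were each among the 5 lowest fetuses for 5 genes. COL1A1 in NoVTM_MG replicate 6 was the exception, ranking 15, and for VIM it was replicate 7, ranking 17. VTM_LG also held low fetuses: replicates 3 and 4 were among the 5 lowest for 4 genes each. Both ends of the range of these genes held fetuses of VTM_LG and of NoVTM_MG.

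The spread between fetuses was large for the type I collagen genes when set against the whole transcriptome. The biological coefficient of variation, the fitted spread between fetuses of a group beyond counting error, was 38.0% for COL1A2 and 32.2% for COL1A1. That placed them at the 95.6 and 92.5 percentile of tested genes, and the trend fitted to genes of their level was 12.6% and 13%. It was 22.1% for DCN and 18.5% for COL3A1, against trends of 12.4% and 12.6%. VIM and SPARC were nearest to the trend for their level, at 15.4% against 12.3% and 15% against 12.5%.

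This spread was uneven over the groups. The SD of log2 CPM of COL1A2 was 0.261 in VTM_MG, 0.959 in VTM_LG, 0.590 in NoVTM_MG and 0.257 in NoVTM_LG. For COL1A1 it was 0.239, 0.730, 0.485 and 0.371 in the same groups, and for SPARC 0.144, 0.342, 0.228 and 0.0977. VTM_LG had the largest SD of log2 CPM for all 6 genes. Without VTM_LG replicates 4 and 7 the VTM_LG value was 1.04 for COL1A2, 0.813 for COL1A1 and 0.351 for SPARC. Without VTM_LG replicate 8 it was 0.889, 0.554 and 0.291 in the same order. The difference in spread between groups was not tested.

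The share of the variance of log2 CPM that lay between the 4 groups was 17.2% for COL1A1, 10.8% for COL1A2, 7.18% for COL3A1, 6.31% for SPARC, 6.25% for VIM and 0.369% for DCN. Its median over all tested genes was 10.2%, so the type I collagen genes lay at or above the middle of the transcriptome and the other members below it.

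The design crosses the premix with the rate of gain, so each factor, their interaction and the pairs of groups were compared. None of the 6 genes passed in any of the 9 contrasts by the edgeR quasi-likelihood test, with p-values adjusted by the Benjamini-Hochberg method over all 14228 genes and a threshold of 0.05. None passed in DESeq2 or in limma voom either. Over all contrasts and settings run, the smallest adjusted p of a member was 0.198, for COL1A2 in VTM_MG against VTM_LG by edgeR without VTM_LG replicate 3. Of all genes, 0.0211% passed for gain averaged over supplementation and 0% in each of the other 8 contrasts. These libraries measure the genes in whole tissue, where fewer cells of a type and less RNA per cell cannot be told apart.

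Group means differed most for the type I collagen genes. COL1A1 averaged 35.9 ± 6.35 CPM in VTM_MG (SD, n = 7), 50.9 ± 29.1 CPM in VTM_LG, 31.8 ± 12.8 CPM in NoVTM_MG and 35.7 ± 8.93 CPM in NoVTM_LG (SD, n = 8 each). COL1A2 averaged 46.5 ± 7.70, 72.7 ± 50.4, 46.1 ± 22.5 and 44.5 ± 8.16 CPM in the same groups. VTM_LG had the highest mean for both type I collagen genes, and the order of the other 3 groups differed between them. COL3A1 averaged 265 ± 23.0 CPM in VTM_MG, 292 ± 95.1 CPM in VTM_LG, 252 ± 53.0 CPM in NoVTM_MG and 250 ± 20.1 CPM in NoVTM_LG. DCN averaged 71.2 ± 11.1, 72.8 ± 25.4, 69.8 ± 18.7 and 70.2 ± 8.47 CPM in the same groups. SPARC averaged 213 ± 21.3, 228 ± 54.8, 204 ± 32.7 and 207 ± 14.1 CPM, and VIM averaged 106 ± 13, 112 ± 21.3, 110 ± 20.4 and 100 ± 13 CPM, again in the same groups. The mean of VTM_LG was the highest for all 6 genes, and no neighbours in these orders differed beyond the spread between fetuses. Without VTM_LG replicate 8 the VTM_LG mean stayed highest for COL1A1, COL1A2 and SPARC only. It was then 66 CPM for DCN, below the other groups, and 109 CPM for VIM, below NoVTM_MG. For COL3A1 it was 265 CPM, as in VTM_MG. Without VTM_LG replicates 4 and 7 the VTM_LG mean was 56 CPM for COL1A1, 83.9 CPM for COL1A2 and 317 CPM for COL3A1. It was then 79 CPM for DCN, 242 CPM for SPARC and 116 CPM for VIM.

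Maternal gain, averaged over supplementation, gave small differences. COL1A1 averaged 33.7 ± 10.2 CPM in MG fetuses (SD, n = 15) and 43.3 ± 22.2 CPM in LG fetuses (SD, n = 16), a log2 fold change of -0.33 (95% interval -0.68 to 0.01, adjusted p = 0.64 in edgeR). COL1A2 averaged 46.3 ± 16.7 CPM in MG and 58.6 ± 37.8 CPM in LG, a log2 fold change of -0.30 (95% interval -0.70 to 0.11, adjusted p = 0.72 in edgeR). Without VTM_LG replicate 8 these were -0.20 for COL1A1 and -0.19 for COL1A2, and without VTM_LG replicate 1 the COL1A2 value was -0.16. They were -0.40 for COL1A1 and -0.40 for COL1A2 without VTM_LG replicates 4 and 7. For the other members the intervals were narrow. The log2 fold change was -0.06 for COL3A1 (-0.26 to 0.13), -0.02 for DCN (-0.25 to 0.21), -0.06 for SPARC (-0.22 to 0.10) and 0.03 for VIM (-0.13 to 0.19). The median over the 6 genes was -0.06 and over all tested genes 0.00, and 5 of the 6 were below 0 against 50.5% of all genes. At an unadjusted p under 0.05 the count was 0 of 6 members, against 7.82% of all genes.

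Supplementation, averaged over gain, gave fitted values above 0 for all 6 genes, none of which passed. COL1A1 averaged 43.9 ± 22.4 CPM in VTM fetuses (SD, n = 15) and 33.8 ± 10.9 CPM in NoVTM fetuses (SD, n = 16), a log2 fold change of 0.34 with an unadjusted p of 0.0502 and an adjusted p of 1 in edgeR. COL1A2 averaged 60.5 ± 38.4 CPM in VTM and 45.3 ± 16.4 CPM in NoVTM, a log2 fold change of 0.36 (95% interval -0.05 to 0.77). COL3A1 had a log2 fold change of 0.15 (-0.04 to 0.34), SPARC of 0.10 (-0.05 to 0.26), VIM of 0.05 (-0.11 to 0.21) and DCN of 0.04 (-0.19 to 0.27). The median over the 6 genes was 0.13, against 0.00 over all tested genes, of which 50.4% were below 0. At an unadjusted p under 0.05 the count was 0 of 6 members, against 2.9% of all genes. Without VTM_LG replicate 8 the log2 fold change was 0.21 for COL1A1 and -0.03 for DCN, and without VTM_LG replicate 1 it was 0.22 for COL1A2. It was 0.41 for COL1A1 and 0.46 for COL1A2 without VTM_LG replicates 4 and 7.

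Split by gain, the supplementation values differed in size. At low gain, VTM_LG against NoVTM_LG, the log2 fold change was 0.51 for COL1A1 (95% interval 0.03 to 0.98, unadjusted p = 0.0374, adjusted p = 0.601 in edgeR). For COL1A2 it was 0.71 (0.14 to 1.27, unadjusted p = 0.0161, adjusted p = 0.601 in edgeR). These 2 of the 6 genes were under an unadjusted p of 0.05, as were 8.25% of all genes. Each value rested in part on 1 fetus: it was 0.24 for COL1A1 without VTM_LG replicate 8, and 0.44 for COL1A2 without VTM_LG replicate 1. Without VTM_LG replicates 4 and 7 the values were 0.65 and 0.91. The fit shares 1 spread per gene over all groups. The SD of log2 CPM of COL1A2, however, was 0.959 in VTM_LG and 0.257 in NoVTM_LG. The edgeR intervals and p-values of contrasts with VTM_LG do not allow for such a difference. At moderate gain, VTM_MG against NoVTM_MG, the log2 fold change was 0.18 for COL1A1 (-0.32 to 0.68) and 0.01 for COL1A2 (-0.58 to 0.60). Without NoVTM_MG replicate 3 these were 0.39 and 0.26. The COL1A1 value was 0.10 without NoVTM_MG replicate 7 and 0.09 without VTM_MG replicate 4. Here 0 of 6 genes were under an unadjusted p of 0.05, against 4.57% of all genes.

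The interaction itself, which tests whether the effect of supplementation differed between levels of gain, passed for none of the 6. It was -0.33 on the log2 scale for COL1A1 (95% interval -1.02 to 0.36, adjusted p = 0.738 in edgeR) and -0.695 for COL1A2 (-1.51 to 0.12, adjusted p = 0.537 in edgeR). Both values moved with single fetuses. For COL1A1 the interaction was -0.06 without VTM_LG replicate 8, -0.22 without VTM_LG replicate 1 and -0.12 without NoVTM_MG replicate 3. For COL1A2 it was -0.43 without VTM_LG replicate 1 and -0.45 without NoVTM_MG replicate 3. Without VTM_LG replicates 4 and 7 it was -0.47 for COL1A1 and -0.90 for COL1A2, and in limma voom it was 0.002 and -0.29. For the other 4 genes it ran from -0.22 for VIM to -0.02 for DCN. At an unadjusted p under 0.05 the count was 0 of 6, against 10.7% of all genes. The intervals for the type I collagen genes were the widest of the 6.

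The effect of gain in supplemented dams is VTM_MG against VTM_LG, which shares the VTM_LG fetuses with the preceding contrast at low gain. The log2 fold change was -0.50 for COL1A1 (unadjusted p = 0.0485, adjusted p = 0.336 in edgeR) and -0.64 for COL1A2 (unadjusted p = 0.033, adjusted p = 0.307 in edgeR). These were 2 of 6 genes under an unadjusted p of 0.05, against 14.8% of all genes. Without VTM_LG replicate 8 the COL1A1 value was -0.23, and without VTM_LG replicate 1 the COL1A2 value was -0.38. With VTM_LG replicates 4 and 7 left out they were -0.64 for COL1A1 and -0.85 for COL1A2. The other 4 genes lay between -0.14 for COL3A1 and -0.03 for DCN. Gain without supplementation, NoVTM_MG against NoVTM_LG, gave -0.17 for COL1A1 (-0.65 to 0.31) and 0.05 for COL1A2 (-0.52 to 0.62), and 0 of 6 genes at an unadjusted p under 0.05 against 4.59% of all genes. Without NoVTM_MG replicate 3 these were -0.38 and -0.20. The COL1A1 value was -0.09 without NoVTM_MG replicate 7 and likewise without NoVTM_LG replicate 6.

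Both factors differed in the remaining contrasts. In VTM_LG against NoVTM_MG the log2 fold change was 0.68 for COL1A1 (95% interval 0.20 to 1.16, unadjusted p = 0.00692, adjusted p = 0.516 in edgeR), the smallest unadjusted p of a member in any contrast. COL1A2 had 0.66 (0.09 to 1.22, unadjusted p = 0.0245, adjusted p = 0.532 in edgeR), so that 2 of 6 genes were under an unadjusted p of 0.05, against 8.94% of all genes. Without VTM_LG replicate 8 the COL1A1 value was 0.41, and without NoVTM_MG replicate 3 it was 0.88. For COL1A2 it was 0.39 without VTM_LG replicate 1 and 0.90 without NoVTM_MG replicate 3. The values were 0.82 for COL1A1 and 0.86 for COL1A2 without VTM_LG replicates 4 and 7. In VTM_MG against NoVTM_LG the log2 fold changes of the 6 genes lay between 0.01 for COL1A1 and 0.09 for COL3A1, and 0 of 6 were under an unadjusted p of 0.05, against 2.85% of all genes.

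**Figure D2:**
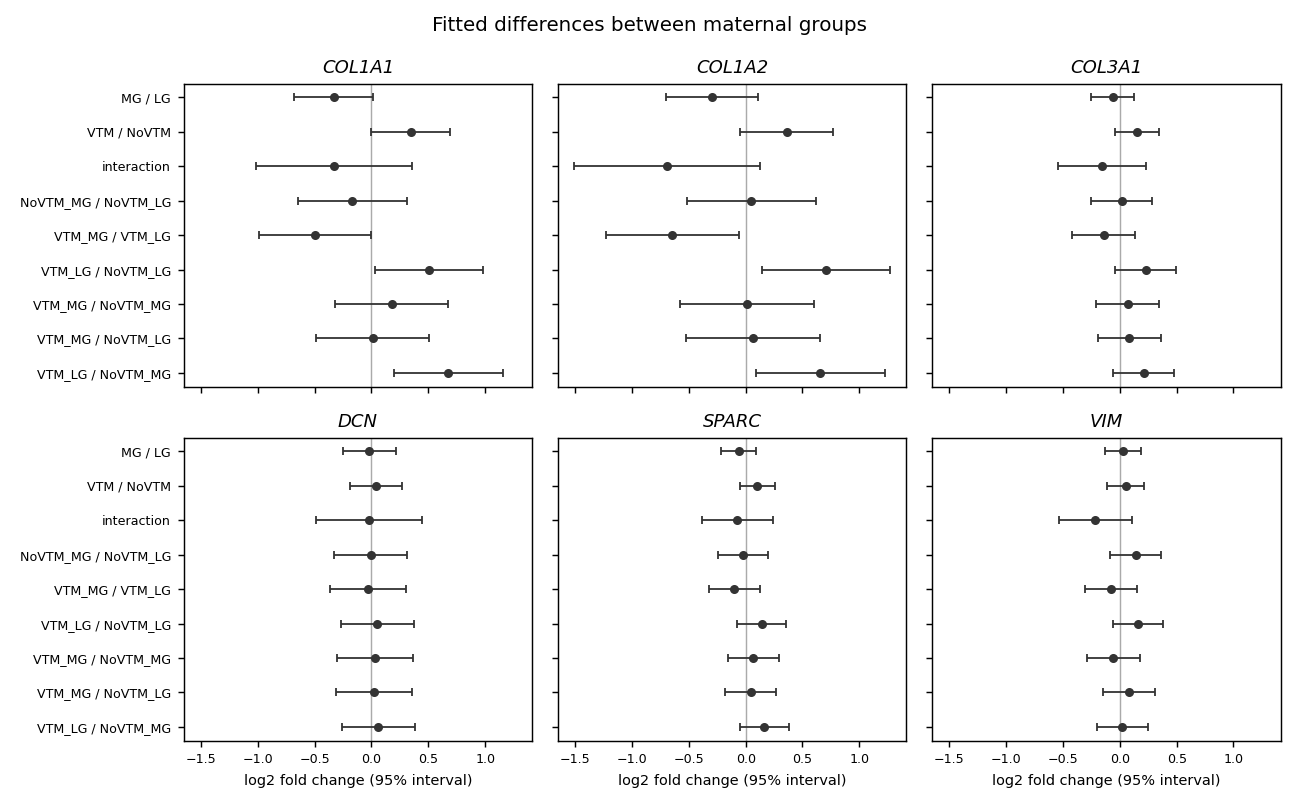
Fitted log2 fold change (x axis) of each gene in the 9 contrasts (y axis, named as first group over second), with 95% intervals from the edgeR fit as bars. The row named interaction is the gain effect with supplementation minus that without it. Intervals are widest for COL1A1 and COL1A2, and no point passed the adjusted threshold.

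Fetuses high in 1 of the genes were mostly high in the others. All 15 pairs of members were positively correlated in log2 CPM over the 31 fetuses, with Pearson's r from 0.396 to 0.914. By a two-sided permutation test with 100000 resamples, adjusted over the 15 pairs, 15 passed at 0.05 for Pearson's r and 14 for Spearman's rho. The share of all pairs of tested genes that would pass was not computed, so these counts have no background beside them. The closest pair was COL3A1 and SPARC (r = 0.914, rho = 0.881), followed by DCN and SPARC (r = 0.900, rho = 0.895). The permutation p of each of these 4 values was 1e-05, the smallest the permutations can give, and the adjusted values were 1.15e-05 for r and 1.67e-05 for rho. Without the 2 fetuses farthest from the median of the first gene, r was 0.872 for each of these pairs.

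The collagen chains moved together. COL1A2 and COL3A1 had r = 0.873 and rho = 0.841 (permutation p = 1e-05 each), and r = 0.826 without VTM_LG replicates 1 and 8, the farthest fetuses on COL1A2. COL1A1 and COL3A1 had r = 0.855 (permutation p = 1e-05) and rho = 0.720 (permutation p = 3e-05), with r = 0.735 without VTM_LG replicates 1 and 8. COL1A1 and COL1A2, the chains of 1 molecule, had r = 0.817 (permutation p = 1e-05) and rho = 0.669 (permutation p = 5e-05), with r = 0.653 without the same fetuses.

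COL1A1 was less tied to DCN, SPARC and VIM than were COL1A2 and COL3A1. The r of COL1A1 was 0.584 with DCN (permutation p = 0.00055, rho = 0.425 with permutation p = 0.0172) and 0.726 with SPARC (permutation p = 1e-05, rho = 0.560 with permutation p = 0.00112). With VIM it was 0.396 (permutation p = 0.0272, rho = 0.235 with permutation p = 0.2). Without VTM_LG replicates 1 and 8 the last of these was 0.218 (permutation p = 0.251), so the relation of COL1A1 with VIM rests on those fetuses. The r of COL1A1 and VIM also missed the threshold without NoVTM_MG replicate 3, VTM_LG replicate 1 or VTM_LG replicate 8 alone, at 0.328, 0.354 and 0.293 with adjusted permutation p-values of 0.0772, 0.0552 and 0.118. VIM was closer to SPARC (r = 0.820, rho = 0.780) and to DCN (r = 0.762, rho = 0.748), each with a permutation p of 1e-05.

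The relations were of like size with the group means removed and all fetuses pooled, though single groups differed, as given below. Taken as deviations from the mean of each group, the 15 pairs had a mean r of 0.785 and ran from 0.415 for COL1A1 and VIM to 0.924 for DCN and SPARC, and 15 of 15 passed at an adjusted permutation p of 0.05. The mean over all pairs of the 14228 tested genes was 0.000916, in which positive and negative values can cancel. The 95th percentile of within-group r over all other tested genes was 0.472 for COL1A1, 0.468 for COL1A2 and 0.514 for COL3A1. It was 0.455 for DCN, 0.48 for SPARC and 0.501 for VIM, so COL1A1 and VIM, at 0.415, lay below it. Leaving out VTM_LG replicates 4 and 7 gave within-group values from 0.374 for COL1A1 and VIM to 0.920 for DCN and SPARC. The permutations of these deviations ran over all fetuses together. Their p-values therefore do not allow for a spread that differed between groups.

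Set against every other tested gene, the members were near the top of each other's lists. Of 14227 genes ranked by within-group r, SPARC ranked 1 for COL1A2, COL3A1, DCN and VIM, and DCN ranked 1 for SPARC. For COL1A1 the first gene was COL3A1, COL1A2 ranked 5, SPARC 40 and DCN 128, while VIM ranked 1151, with 8.08% of genes above it. For VIM, DCN ranked 10, COL1A2 34 and COL3A1 77, and COL1A1 ranked 1299. These ranks are a description, as all genes share the same libraries.

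Of the 8442 other genes with a mean of at least 10 CPM, the one with the highest mean within-group r to the 6 members over the 31 fetuses was ENSBTAG00000011327, at 0.766, with single values from 0.656 to 0.837. ENSBTAG00000020979 came next at 0.763, from 0.620 to 0.832. Without VTM_LG replicates 4 and 7 they ranked 3 and 2, at 0.742 and 0.772. In ENSBTAG00000011327 the mean was 58.7 ± 5.87 CPM in VTM_MG (SD, n = 7), 63.9 ± 15.7 in VTM_LG, 63.9 ± 10.3 in NoVTM_MG and 66.1 ± 6.70 in NoVTM_LG (SD, n = 8 each), and its highest fetus in VTM_LG was replicate 8, at 95.9 CPM. The sources used here give no symbol for either.

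Within single groups the pattern was uneven. The share of all gene pairs that pass within a group was not computed, so the counts below are not set against a background. In VTM_LG (n = 8) r ran from 0.810 to 0.977 and 15 of 15 pairs passed an exact permutation test adjusted over the 60 pairs and groups, and 12 passed by Spearman's rho. Without replicates 4 and 7 of VTM_LG, r ran from 0.83 to 0.975 (n = 6). In NoVTM_MG (n = 8) r ran from 0.346 to 0.972 and 10 pairs passed, 6 by rho. Without the 2 fetuses farthest from the median of the first gene, replicate 3 being 1 of them each time, these 10 were uneven. Their r then ran from -0.0332 for COL1A1 and COL3A1 to 0.967 for COL1A2 and DCN. Every NoVTM_MG pair with COL1A1 was then below 0, down to -0.88 with VIM. In VTM_MG (n = 7) r ran from -0.790 to 0.847 and 1 pair passed, 0 by rho. That pair, DCN and VIM, had r = 0.810 (exact permutation p = 0.0109), and 0.144 without replicates 4 and 6. In NoVTM_LG (n = 8) it ran from -0.024 to 0.819 and 1 pair passed, SPARC and VIM, whose r of 0.819 was 0.409 without replicates 2 and 4. By rho the pair that passed in NoVTM_LG was COL3A1 and SPARC. VTM_LG and NoVTM_MG were also the groups with the largest SD of COL1A1, COL1A2 and COL3A1.

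Of the 5 pairs with COL1A1, 4 had the widest spans of r over the groups, COL1A1 with COL3A1 being the exception. COL1A1 and COL1A2 had r = 0.949 in VTM_LG (exact permutation p = 0.000645, n = 8; rho = 0.881, exact permutation p = 0.00724), and 0.922 without replicates 1 and 8. In VTM_MG the same pair had r = -0.01 (exact permutation p = 0.978, n = 7; rho = -0.143, exact permutation p = 0.783). COL1A1 and VIM had r = -0.790 in VTM_MG (exact permutation p = 0.0276, adjusted 0.0571, n = 7; rho = -0.714, exact permutation p = 0.0881), which did not pass. In NoVTM_MG the r of 0.901 between COL1A1 and COL3A1 (exact permutation p = 0.00866, n = 8; rho = 0.548, exact permutation p = 0.171) rested on replicates 3 and 7, without which it was -0.03. Whether r differs between groups was not tested.

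**Figure D3:**
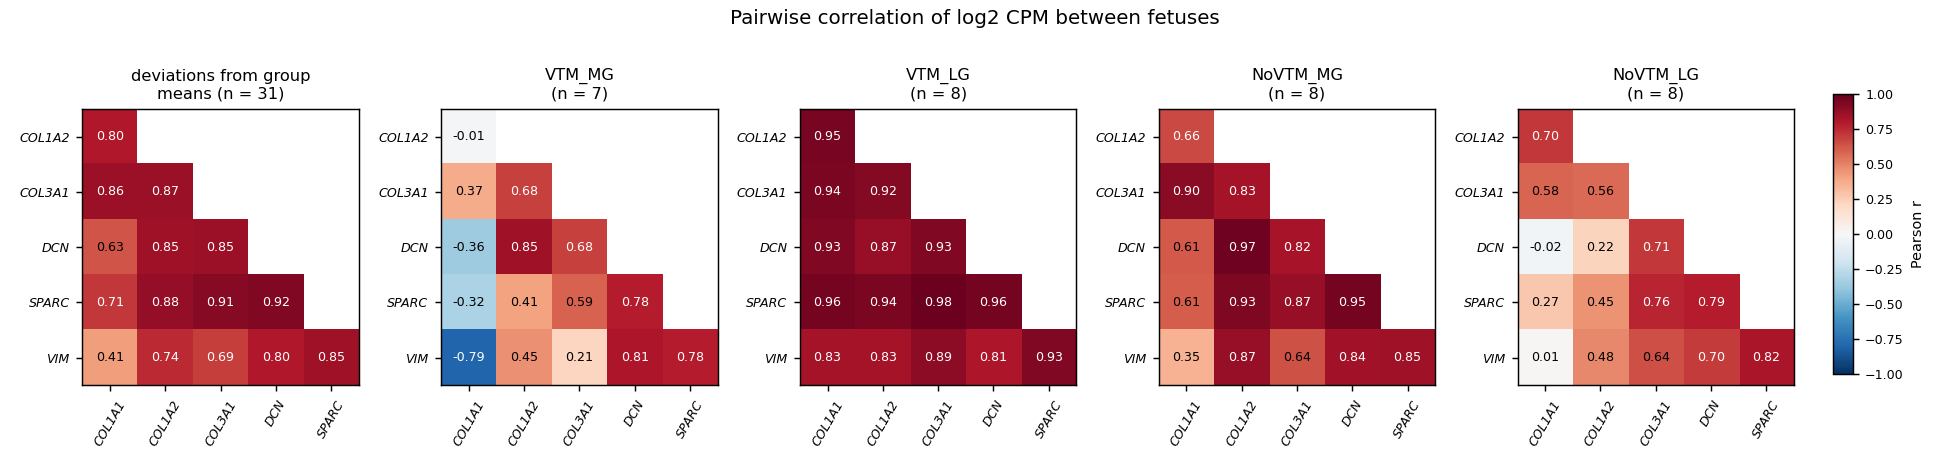
Pearson's r of log2 CPM between members (colour and printed value), for deviations from group means over 31 fetuses (left panel) and within each maternal group (other panels). VTM_LG is positive throughout, from 0.81 to 0.98, while the COL1A1 column is below 0 for 4 pairs in VTM_MG and within 0.024 of 0 for 2 pairs in NoVTM_LG.

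The make-up of the fibrillar collagens was followed by count ratios within a library, which do not depend on library scaling. They are ratios of read counts, not of molecules, so only differences between fetuses are read from them. COL3A1 over COL1A1 had a median of 7.98 in VTM_MG fetuses (5.84 to 8.57), 6.46 in VTM_LG (4.35 to 8.90), 8.76 in NoVTM_MG (6.00 to 10.2) and 7.05 in NoVTM_LG (5.08 to 9.44). The lowest ratio belonged to VTM_LG replicate 8, the fetus with the highest COL1A1, and the highest to NoVTM_MG replicate 7, the fetus with the lowest. COL1A1 is the denominator, so its level and the ratio are not independent, and no relation is read from this. The within-group SD of the log2 ratio was 0.297, against 0.0688 from counting error alone. The spread that library preparation adds was not measured.

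None of 16 tests of these ratios passed after adjustment over all of them. For COL3A1 over COL1A1 the mean log2 ratio was 2.97 ± 0.253 in MG fetuses (SD, n = 15) and 2.74 ± 0.340 in LG fetuses (SD, n = 16), a difference of 0.23 (two-sided permutation p = 0.0385, adjusted p = 0.308). It was 2.64 ± 0.350 in VTM_LG and 3.04 ± 0.267 in NoVTM_MG (SD, n = 8 each), a difference of -0.41 (two-sided exact permutation p = 0.0208, adjusted p = 0.308). Between VTM fetuses, at 2.76 ± 0.318 (SD, n = 15), and NoVTM fetuses, at 2.94 ± 0.303 (SD, n = 16), the difference was -0.19 (two-sided permutation p = 0.102, adjusted p = 0.494). The smallest adjusted p of the 16 tests was 0.559 without VTM_LG replicates 4 and 7. Over all settings run it was 0.0995, without VTM_LG replicate 6, which did not pass either.

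COL1A2 over COL1A1 had a median of 1.25 in VTM_MG fetuses (0.858 to 1.68), 1.31 in VTM_LG (0.941 to 2.06), 1.49 in NoVTM_MG (0.728 to 2.19) and 1.26 in NoVTM_LG (1.00 to 1.72). Its lowest and highest values, in replicates 6 and 8, were both in NoVTM_MG. The within-group SD of its log2 was 0.363, against 0.0859 from counting error, and none of its 8 tests had a permutation p under 0.405. A difference of this ratio between maternal groups was not detectable with these fetuses.

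**Figure D4:**
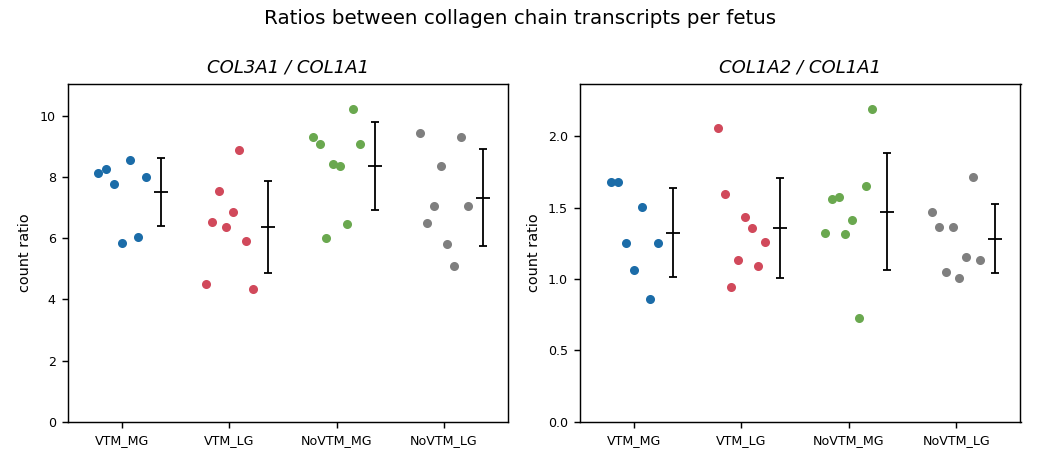
Ratio of raw counts within each library (y axis, linear from 0) for COL3A1 over COL1A1 (left) and COL1A2 over COL1A1 (right), by maternal group (x axis), with points for fetuses and bars for the mean and SD. Every group overlaps every other, and the widest span of COL1A2 over COL1A1, 0.728 to 2.19, is in NoVTM_MG.

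The members were also set against the total count of the library and the first principal component of the other genes. These 12 relations were tested over the 31 libraries and again without VTM_LG replicates 4 and 7, adjusted within each set. The component was computed with all 31 libraries and was not recomputed without those 2. None passed against the total count over the 31 libraries, with r from -0.315 for COL1A1 to 0.183 for VIM (adjusted permutation p of at least 0.218). Against the first principal component of the other genes, r ran from -0.478 for COL3A1 (permutation p = 0.0167, adjusted p = 0.1, rho = -0.453 with permutation p = 0.0109) to -0.173 for VIM, and none passed. Without VTM_LG replicates 4 and 7, r was -0.588 for COL1A1 (permutation p = 0.00096, adjusted p = 0.0115, rho = -0.540 with permutation p = 0.00287) and -0.532 for COL3A1 (permutation p = 0.0031, adjusted p = 0.0186, rho = -0.382 with permutation p = 0.0419). By rho, COL1A1 passed as well (adjusted permutation p = 0.0344), and COL3A1 did not (adjusted permutation p = 0.251). Without also the 2 libraries then farthest on that component, r was -0.346 for COL1A1 and -0.206 for COL3A1. These last values were not tested. VTM_LG replicate 8 lay at -20.1, the lowest value on the component, and its part in the results was not tested beyond leaving it out.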

How the data were processed

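Liver RNA of 31 fetuses was sequenced from strand-specific libraries in pairs of 150 bp, per the labels' protocols. The submitters' processing notes name CASAVA, FastQC 0.11.8, MultiQC 1.9, STAR 2.7.3a and edgeR, with no role or order. Genome build, annotation and counting program: not given in the sources used here. Values were deposited as raw counts, 1 per Ensembl gene and library, with 13062894 to 18458776 counts per library. Columns were matched to samples by title and groups taken from the treatment label. Breeding group is not given per sample, so no batch could be entered.

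Genes were kept by filterByExpr (minimum count 10, minimum total 15), scaled by TMM and fitted with 1 mean per group in edgeR 4.0.16 (R 4.3.3), with 9 contrasts and the Benjamini-Hochberg adjustment over all tested genes. Standard errors and 95% intervals were derived from the fold change and its F statistic. The fit takes 1 spread per gene for all groups. The procedure was tested on simulated data. Correlations used log2 CPM with a prior count of 2 and 100000 permutations over samples, or all orders within a group. The spread behind each p-value is that among fetuses of different dams by 1 sire. Counting intervals cover counting error only.

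Alternatives were relative log expression scaling, no filter, DESeq2 1.42.0, limma 3.58.1 voom with quality weights, only the compared groups, raw library totals, a prior count of 0.5, and leaving out VTM_LG replicates 4 and 7 or each library in turn. The genes named are the 6 members and, by likeness of pattern, the first 2 of 5 other genes, because identifiers had no symbols (the reference lists 37063 genes, 0 with an Ensembl identifier). For the same reason the lists of marker and pathway genes drawn up by symbol were not used. The members, the lists and the left-out pair were chosen with earlier results of these data known.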

Additional observations from a re-analysis of the deposited data

Results flagged for a closer look

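In 32 groups of values checked, 24 of CPM and 8 of count ratios, 2 held a fetus far from the rest of its group by Dixon's criterion at 95%, which chance meets in about 1 of 20 groups. Both were NoVTM_MG replicate 3. Its COL1A1 level was 61.5 CPM, while the other 7 fetuses of NoVTM_MG lay between 18.9 and 34.5 CPM. Its COL1A2 level was 96.8 CPM, while the others lay between 25.1 and 57.7 CPM. The same fetus was highest in NoVTM_MG for COL3A1, DCN, SPARC and VIM, without meeting the criterion. VTM_LG replicate 8, at 110 CPM of COL1A1, did not meet it, because VTM_LG replicate 1 was also high.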

How the results depend on the processing

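No member passed in any contrast under any of the 37 other settings, and none of the ratio tests passed under theirs. All 15 correlated pairs kept their sign, and 14 or 15 of them their side of the threshold, COL1A1 and VIM being the exception. Mean CPM per group moved by less than 1 SD on raw library totals.

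Some log2 fold changes changed sign. Leaving out each library in turn gave, for gain averaged over supplementation, -0.113 to 0.009 for COL3A1, -0.075 to 0.054 for DCN and -0.005 to 0.062 for VIM. For supplementation averaged over gain it gave -0.034 to 0.094 for DCN. It gave -0.195 to 0.142 for COL1A2 in NoVTM_MG against NoVTM_LG, -0.079 to 0.258 for COL1A2 in VTM_MG against NoVTM_MG, and -0.078 to 0.094 for COL1A1 in VTM_MG against NoVTM_LG. In limma voom the COL1A1 interaction was 0.002, against -0.33 in edgeR, COL1A1 in VTM_MG against NoVTM_LG was -0.024 and COL1A2 in NoVTM_MG against NoVTM_LG was -0.085. In limma voom COL1A1 and COL1A2 were also nearer 0 in VTM_MG against VTM_LG, at -0.31 and -0.38, and in VTM_LG against NoVTM_LG, at 0.28 and 0.43. The cause was not tested.

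No paired analysis was made, because the labels give no pairing of fetuses between groups. Replicate numbers count the fetuses within each group and do not link fetuses of different groups. Counts of 278 or more per library made counting error small beside the spread between libraries, which is what limits these comparisons.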
